A study of Mus musculus with 60 samples.

Results

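The primary cilium is a single immobile projection of the cell surface, built on a centriole and carried by most neurons and some glia of the brain. The levels of 8 genes for its parts and for the structures that supply it were followed in all 60 RNA-Seq libraries of the series. They were taken by gene symbol, each symbol matched 1 entry, and they are 8 of 47597 entries per table. The 8 are Ift20 and Ift88 of the transport trains, the motor gene Kif3a, Bbs4 of the BBSome, Adcy3 and Sstr3 of the ciliary membrane, Pcm1 of the centriolar satellites and Golga2 of the Golgi. All 8 passed the filter on low values used for the tests, a mean of at least 0.5 rescaled FPKM.

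Intraflagellar transport moves cargo along the cilium. Its B trains, which hold IFT88 and IFT20, are pulled to the tip by kinesin-2, a motor with KIF3A as a subunit, and the A trains serve the way back. The BBSome, with BBS4 among its subunits, carries membrane receptors in and out. ADCY3 is the adenylyl cyclase by which neuronal cilia are commonly stained, and SSTR3 is a somatostatin receptor that neurons place in the cilium. PCM1 is the scaffold of the centriolar satellites, granules around the centrosome that handle proteins bound for the cilium, and BBS4 is found there too. GOLGA2, also called GM130, is a matrix protein of the cis-Golgi, and IFT20 is the train subunit that is also found at the Golgi. Huntingtin has been tied to PCM1 through its partner HAP1, which is why these genes are of interest in mice with altered Htt.

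The libraries were made from total RNA of cortex and striatum of c57BL-6N mice aged 3 months. The Δ12 line carries an engineered deletion within exon 12 of Htt that leaves the reading frame intact, and was sampled as +/+, Δ12/+ and Δ12/Δ12. The KO line came out of the same editing with an unplanned deletion that took the splice donor of the exon with it, and was sampled as +/+ and KO/+. Each of the 10 combinations of tissue label, line and genotype held 6 libraries, 3 labelled male and 3 labelled female, and no group had a treatment. Each line goes back to edited embryonic stem cells or a founder, so line and allele were not separated from other changes it may carry. A library labelled striatum, KO/+ and female 3 has a title that places it in the Δ12 line, and it was grouped by its genotype label.

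The labels were checked against transcripts before levels were read. Slc17a7, the vesicular glutamate transporter of cortical excitatory neurons, was above 100 FPKM as deposited in 30 libraries, here called cortex-like (121 to 234), and lay at 4.81 to 64.8 in the other 30, called striatum-like. The sum of 8 markers of striatal projection neurons was 106 to 562 rescaled FPKM in the cortex-like libraries and 1071 to 2068 in the striatum-like ones. This class went with the labelled tissue in 30 of 60 libraries, and Xist and Ddx3y went with the labelled sex in 30 of 60. All +/+ and Δ12/+ libraries of the Δ12 line and the labelled male Δ12/Δ12 libraries were cortex-like under both tissue labels, and all KO-line libraries and the labelled female Δ12/Δ12 libraries were striatum-like. Class and labelled line therefore cannot be told apart except among the libraries labelled Δ12/Δ12, and whether those labels hold was not tested. Htt itself ranged from 4.81 to 11.2 rescaled FPKM in the cortex-like class and from 12.7 to 20.7 in the striatum-like class, and its change with genotype within a line and tissue label was -0.28 to -0.01 on the log2 scale, with none called. Depth, estimated from the deposited confidence bounds, was 12700000 to 27500000 fragments. The libraries labelled cortex Δ12-line +/+ male 1 and female 1 stood apart with 16403 and 14912 entries above 0, against at least 18667 elsewhere.

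In the deposited tables Pcm1 (ENSMUSG00000031592) lies at chr8:41239759-41334086 and Golga2 (ENSMUSG00000002546) at chr2:32287384-32307921, as all coordinates here on GRCm38. Ift88 (ENSMUSG00000040040) lies at chr14:57424062-57517936, and Ift20 (ENSMUSG00000001105) and Kif3a (ENSMUSG00000018395) share chromosome 11, at chr11:78536361-78541737 and chr11:53567379-53601967. Adcy3 (ENSMUSG00000020654) lies at chr12:4133103-4213525, Bbs4 (ENSMUSG00000025235) at chr9:59321966-59353508 and Sstr3 (ENSMUSG00000044933) at chr15:78537015-78544345. Bbs4 and Sstr3 are on the minus strand and the other 6 on the plus strand. Genes on the opposite strand overlap 4 of them, Swi5 with Golga2, Ift88os and Gm15836 with Ift88, Cenpo with Adcy3 and Adpgk with Bbs4. The library kit marks strand, but the strand setting of the counting is not given in the sources used here, so for these 4 a share of the fragments may belong to the partner. The half-width of the deposited 95% interval was smallest for Pcm1, with a median of 6.9% of the value in cortex-like and 4.8% in striatum-like libraries, and it was largest for Golga2 in the cortex-like (21.9%) and for Sstr3 in the striatum-like libraries (31.7%).

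Many genes of cilia carry an X-box, the site bound by the RFX transcription factors, whose most constant part is the half-site GTTGCC. RefSeq promoters on GRCm38.p6, from 250 bases before to 50 bases after a start, were at hand for 7 of the 8 genes (9 promoters), all but Pcm1. GTTGCC was found on either strand in 2 of these 9, in 29.7% of the promoters of the wider cilium and Golgi lists used below and in 4111 of 32851 promoters of all genes (12.5%). The 2 matches are shown because they belong to a transport train subunit and its motor, whose levels went opposite ways between the classes. Each line gives 26 bases in the direction of the gene, with the half-site or its reverse complement in capitals.
Ift88, chr14:57424082-57424107, plus strand: agtcgcgcctGGCAACggctgggcgt
Kif3a, chr11:53567261-53567286, plus strand: ccccgcaggcGTTGCCccagtctagc
The first base of the match lay at +22 from the start in Ift88 and -98 in Kif3a, and in Ift88 it reads on the opposite strand. A match of letters is a description of the sequence and was not tested as a binding site.

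The 150 bases before the start of Ift20 and Bbs4 are shown because both genes stood higher in every cortex-like than in every striatum-like library while their promoters differ in CpG content. CpG dinucleotides are in capitals.
Ift20, chr11:78536211-78536360, plus strand: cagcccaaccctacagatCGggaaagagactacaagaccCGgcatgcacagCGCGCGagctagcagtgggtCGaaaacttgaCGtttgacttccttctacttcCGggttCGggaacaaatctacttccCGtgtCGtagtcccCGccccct
Bbs4, chr9:59353509-59353658, minus strand: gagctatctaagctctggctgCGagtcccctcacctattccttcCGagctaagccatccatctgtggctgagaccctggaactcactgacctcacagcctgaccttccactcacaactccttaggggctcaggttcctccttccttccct
Ift20 has 12 CpG in this stretch and Bbs4 has 2, against a median of 4 and quartiles of 1 and 11 over all promoters. Ift88, which moved the same way, has 11.

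Between the classes the 8 genes divided. Ift20, Ift88 and Bbs4 were higher in every cortex-like library than in any striatum-like library, Pcm1 and Adcy3 were lower in every one, and Golga2, Kif3a and Sstr3 overlapped. Over all 16076 entries that passed the filter, 16.9% were higher and 19.3% lower without overlap, so 3 higher and 2 lower of 8 are 37.5% and 25.0% against those shares. These counts depended on the scaling. On FPKM as deposited 4 members were higher, Sstr3 being the fourth, and none lower, as Pcm1 and Adcy3 then overlapped, against 20.9% and 9.97% of all entries. Under quantile normalization 4 were higher and 3 lower, against 14.3% and 20.6%. Each member's ratio had the same sign under these scalings. The classes come from measured expression, so these levels are a description with no test. In bulk tissue, fewer cells of a type and less RNA per cell cannot be told apart. Values below are rescaled FPKM, deposited FPKM divided by a size factor per library, and ratios are differences of log2(value + 0.5) between class medians, cortex-like minus striatum-like.

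Ift20 was the member with the widest gap. It ranged from 41.4 to 116 with a median of 59.5 in the 30 cortex-like libraries and from 8.77 to 12.4 with a median of 10.6 in the 30 striatum-like ones, a 5.63-fold ratio of medians (log2 ratio 2.44). Its highest value, in the library labelled cortex Δ12-line +/+ female 1, is in the library with the fewest entries above 0. Ift88, the other train subunit, went from 4.24 to 14.0 with a median of 8.72 in the cortex-like class and from 2.21 to 4.12 with a median of 3.17 in the striatum-like class (log2 ratio 1.33). The lowest cortex-like value of Ift88 thus lay just above the highest striatum-like one.

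Kif3a, the motor subunit, went the opposite way from Ift20 and Ift88. It had a median of 6.33 in the cortex-like class (4.11 to 15.7) and of 16.6 in the striatum-like class (13.7 to 22.6), a log2 ratio of -1.32. The ranges overlapped through 2 cortex-like libraries, which are the 2 with few entries above 0, at 14.4 and 15.7. Without them Kif3a did not overlap either, and 3 of 8 members were then lower without overlap, against 21.5% of all entries.

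Bbs4 was higher in the cortex-like class, from 11.6 to 17.3 with a median of 14.6, against 5.98 to 9.04 with a median of 7.48 (log2 ratio 0.92). Its spread within a class was among the narrowest of the 8, with a coefficient of variation of 10.4% and 8.98%.

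The ciliary membrane genes did not move as a unit. Adcy3 was lower in the cortex-like class, from 3.01 to 9.36 with a median of 7.01 against 12.4 to 17.6 with a median of 15.2 (log2 ratio -1.06). Sstr3 was higher, from 1.41 to 3.91 with a median of 2.73 against 0.309 to 1.51 with a median of 0.639 (log2 ratio 1.51), with 1 library of each class inside the range of the other.

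The striatum-like library with the highest Sstr3, cortex KO-line KO/+ male 3 at 1.51, also had the highest sum of 5 cortical excitatory neuron markers, Slc17a7 included, in that class, 82.1. The library with the lowest Sstr3, cortex KO-line KO/+ female 3 at 0.309, had a sum of 11.0. Both carry the same label apart from sex. The part of cortical neurons in the level of Sstr3 was not tested.

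Pcm1 was lower in the cortex-like class, from 3.93 to 7.53 with a median of 5.49 against 10.2 to 13.5 with a median of 12.0 (log2 ratio -1.06). Golga2 followed with a median of 6.46 (2.2 to 10.4) against 11.3 (9.35 to 13.7), a log2 ratio of -0.76, and overlapped through 1 cortex-like and 5 striatum-like libraries. Its lowest value was in the library labelled cortex Δ12-line +/+ female 1.

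FPKM is a level per transcript length, so the 8 can also be ranked within a class. The ratio between the classes still went with transcript length, as given below, and the part of length in these orders was not tested. In the cortex-like class the medians ran from Ift20 through Bbs4, Ift88, Adcy3, Golga2, Kif3a and Pcm1 down to Sstr3, and the neighbours had overlapping ranges except Ift20 and Bbs4, at 41.4 and above and 17.3 and below, and, narrowly, Pcm1 and Sstr3, at 3.93 and 3.91. In the striatum-like class Kif3a led, followed by Adcy3, Pcm1, Golga2, Ift20, Bbs4, Ift88 and Sstr3. There Bbs4 lay above Ift88 in every library range (5.98 to 9.04 against 2.21 to 4.12), and Ift88 above Sstr3 (0.309 to 1.51).

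**Figure D1:**
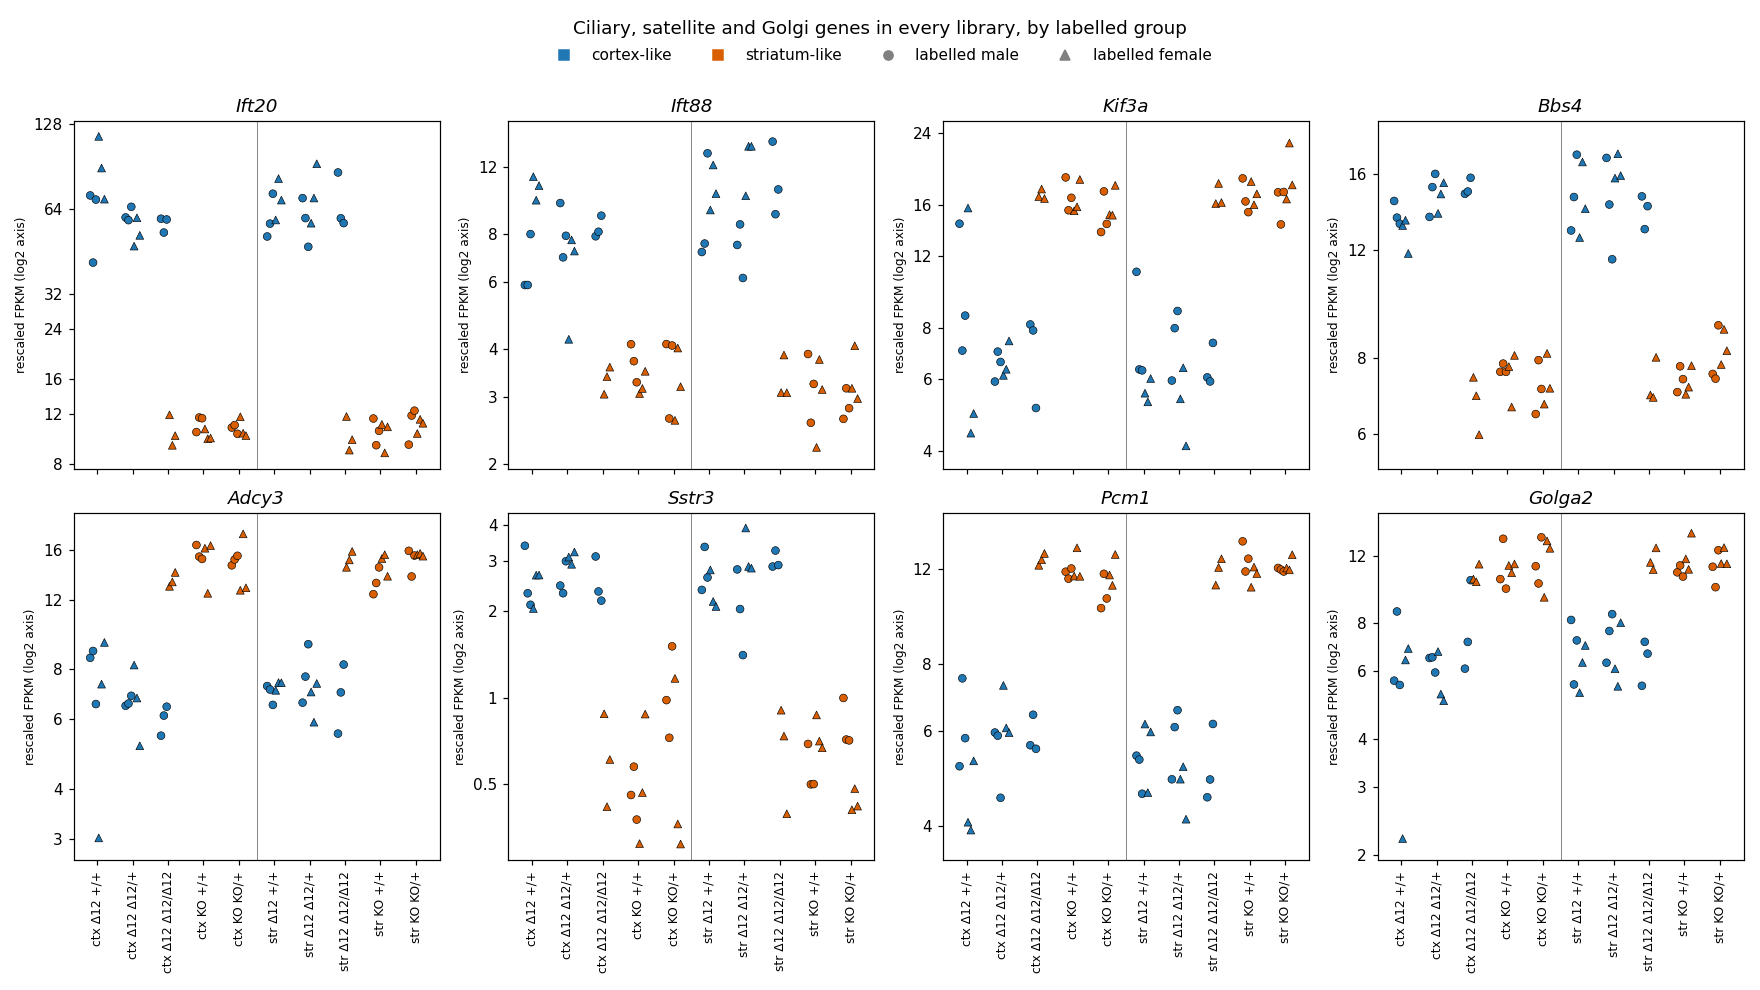
Rescaled FPKM (log2 axis) of each of the 8 genes, 1 point per library, over the 10 labelled groups (ctx, libraries labelled cortex, and str, libraries labelled striatum, by line and genotype). Colour gives the class by Slc17a7 and shape the labelled sex. In Ift20 the cortex-like points lie at 41.4 and above and the striatum-like points at 12.4 and below, and the Δ12/Δ12 groups hold points of both classes.

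Δ12/Δ12 is the only genotype within a labelled line that holds both classes, in 6 labelled male cortex-like and 6 labelled female striatum-like libraries. Class and labelled sex coincide there, and whether the line and genotype labels of these libraries hold was not tested. Ift20 was 52.9 to 86.2 in the labelled males and 8.97 to 12.0 in the labelled females, a log2 ratio of 2.51 close to that over all libraries. Ift88 was 7.90 to 14.0 against 3.04 to 3.86, and Bbs4 13.0 to 15.8 against 5.98 to 8.01. Sstr3, which overlapped over all libraries, did not here, at 2.18 to 3.26 against 0.394 to 0.905.

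The lower members kept their direction in Δ12/Δ12 as well. Pcm1 was 4.53 to 6.44 in the labelled males and 11.2 to 12.9 in the labelled females, Adcy3 5.45 to 8.23 against 13.0 to 15.9, and Kif3a 5.09 to 8.15 against 16.1 to 18.0. Golga2 overlapped (5.5 to 10.4 against 10.3 to 12.6). In all, 4 of 8 members were higher and 3 lower without overlap in these 12 libraries, against 27.7% higher and 31.8% lower over all entries in the same split.

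Transcript length went with the class ratio over all genes, and the 8 genes largely divided the same way. Ift20, Bbs4, Ift88 and Sstr3 were higher and the longer Golga2, Adcy3 and Pcm1 lower. Kif3a, shorter than all but Ift20, was the exception. Among 13007 protein-coding genes that passed the filter, the median log2 ratio was 1.22 for longest annotated transcripts of 700 to 1000 nucleotides and fell to -0.80 above 8000 nucleotides. Ift20 has the shortest longest transcript of the 8, 1167 nucleotides, and Pcm1 the longest, 6624. After subtraction of the median of genes of like length, the ratio of Ift20 was 1.53 and that of Pcm1 -0.37. The gap narrowed in both, and likewise in Adcy3 (5621 nucleotides), from -1.06 to -0.62, in Golga2 (4373), from -0.76 to -0.33, and a little in Kif3a (3161), from -1.32 to -1.17. It widened in Ift88 (4226), to 1.76, in Sstr3 (4275), to 1.94, and in Bbs4 (3757), to 1.07. The longest annotated transcript of Bbs4 has only 2 exons, and whether its length stands for the main transcript of the gene was not tested. The part of transcript length in the class difference was not tested.

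**Figure D2:**
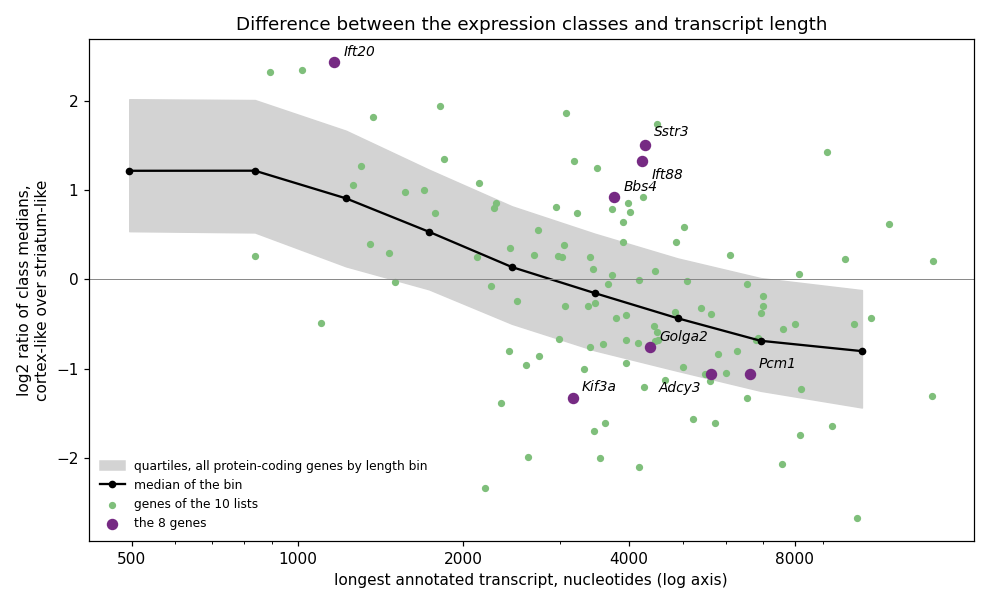
Log2 ratio of class medians, cortex-like over striatum-like, against the longest annotated transcript (nucleotides, log axis) for the 8 genes (large labelled points) and the genes of 10 cilium and Golgi lists (small points). The line joins the medians of protein-coding genes in bins of length, falling from 1.22 to -0.80, and the band spans their quartiles. Ift20 at 2.44, Sstr3 at 1.51, Ift88 at 1.33 and Bbs4 at 0.92 lie above the band and Kif3a at -1.32 below it.

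Cell type markers other than those of neurons also differed between the classes. The summed level of 4 oligodendrocyte markers was 252 to 518 in the cortex-like and 644 to 1071 in the striatum-like class, with 3 of 4 lower in cortex-like without overlap. The 2 oligodendrocyte precursor markers summed to 4.71 to 12.2 against 8.59 to 12.8, and the 4 microglia markers to 18.2 to 35.1 against 37.4 to 52.1. Astrocyte markers (5) summed to 348 to 802 against 435 to 593 and endothelial markers (3) to 25.1 to 56.3 against 21.8 to 35.4. Ependymal cells and choroid plexus carry cilia of their own. The 6 choroid plexus markers summed to 2.72 to 381 in the cortex-like and 34.6 to 2105 in the striatum-like class, and the 9 ependymal markers of motile cilia only to 1.33 to 6.26 and 3.33 to 11.5. Of the ependymal markers, 5 of 9 had a median under 0.5 in the cortex-like class and 4 of 9 in the striatum-like class, and none was listed at 0 in every library of a class. The 4 cortical excitatory neuron markers other than Slc17a7, which sets the classes, summed to 11.9 to 26.4 against 0.663 to 12.5. The part of these cell types in the levels of the 8 genes was not tested.

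The other genes of the cilium, the centrosome and the Golgi were read from 10 lists, with 124 genes in all and the 8 among them. Over all entries that passed the filter, 16.9% were higher and 19.3% lower without overlap. These shares were 20.9% and 9.97% on the deposited scaling and 14.3% and 20.6% under quantile normalization. Without the 2 libraries with few entries above 0 they were 18.6% and 21.5%. Of the IFT-B list, 17 of 18 passed the filter, 4 were higher without overlap and none lower, with a median log2 ratio of 0.74 against -0.03 over all entries. Besides Ift20 and Ift88 these were Ift22, 28.8 to 56.8 against 7.33 to 13.3, and Ttc26, 1.86 to 3.79 against 0.775 to 1.66. In the IFT-A list none of 6 was higher and 2 were lower, Wdr19 and Ttc21b, with a median of -0.55. The B list thus had 23.5% higher and 0.0% lower, and the A list 0.0% and 33.3%. After subtraction of the median of genes of like length, the list medians were 0.43 for B and -0.13 for A. Wdr19 was then at -0.115 and Ttc21b at -0.396. Under the deposited scaling the counts became 8 and 0 in the B list and 0 and 0 in the A list. Without the 2 libraries with few entries above 0 the B list had 7 higher and 1 lower. Most of the B list, 13 of 17, overlapped, and Ift57 (-0.95), Ift80 (-0.55), Ift172 (-0.32) and Traf3ip1 (-0.27) had ratios of the sign of Kif3a.

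Among the motors, 9 of 10 passed, 2 were higher and 3 lower without overlap. These are 22.2% and 33.3%, against 16.9% and 19.3% of all entries. Kifap3, the accessory subunit of the same kinesin-2, was higher in the cortex-like class (51.9 to 76.7 against 31.9 to 39.0) while Kif3b, the partner of Kif3a, was lower (4.42 to 6.68 against 7.08 to 8.40). Kif3c was lower too, at 11.8 to 17.4 against 20.5 to 24.7. After the correction for transcript length the ratios of Kif3b and Kif3c were 0.05 and 0.01, that of Kifap3 1.20 and that of Kif3a -1.17. Kif17, a further kinesin-2 of neuronal cilia, was 2.11 to 4.57 against 6.18 to 12.5. Its ratio after that correction was -1.55, so Kif3a and Kif17 kept ratios well below 0. Wdr34, a chain of the retrograde dynein, was 20.2 to 40.8 against 5.01 to 8.70.

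In the list of the BBSome and its assembly, 4 of 13 were higher and 1 lower, with a median of 0.35. These are 30.8% and 7.69%, against 16.9% and 19.3% of all entries. After the correction for transcript length the median was 0.47. Bbs4 was joined by Bbs9, Mkks and Arl6, the GTPase that brings the BBSome to membranes, while Bbs1 was lower, at 0.849 to 3.16 against 3.90 to 5.5. ARL3 is a GTPase that releases lipid-modified cargo in the cilium. The list of ARL3 and its partners had a median of 0.61, and 0.23 after that correction. Of its 6 genes 3 were higher and none lower, 50.0% and 0.0% against 16.9% and 19.3% of all entries. These 3 were Unc119 and Pde6d, both carriers of such cargo, and Rp2, which switches ARL3 off.

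The list of membrane and signalling genes had a median of -1.06, and -0.61 after the correction for transcript length. None was higher and 8 of 15 were lower without overlap, 0.0% and 53.3% against 16.9% and 19.3% of all entries. With Adcy3 these were the receptor genes Ptch1 (0.539 to 5.55 against 9.56 to 18.0), Mchr1 (0.593 to 3.29 against 7.48 to 15.4) and Htr6 (0 to 1.36 against 1.54 to 4.65), the channel genes Pkd1 and Pkd2, the transcription factor Gli3 and Tub, which brings receptors to the cilium. Mchr1, the receptor of melanin-concentrating hormone, had a log2 ratio of -2.33 and Ptch1, the receptor of Hedgehog, one of -2.67. Sstr3 therefore had the opposite sign to the other ciliary receptors named here. Under the deposited scaling 1 of the list was higher and 5 were lower.

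In the centriolar satellite and centrosome list 1 of 15 was higher, Bbs4, and 5 were lower, with a median of -0.01. These are 6.67% and 33.3%, against 16.9% and 19.3% of all entries. Pcm1 was lower together with Cep290 (0.341 to 0.886 against 1.60 to 2.36), Pcnt (0.115 to 0.997 against 2.25 to 3.03), Ccdc66 and Mib1. After the correction for transcript length Pcm1 was at -0.37, Cep290 at -0.42, Pcnt at -0.83, Ccdc66 at -0.77 and Mib1 at 0.31. The list median was then 0.26. On the deposited scaling 1 was higher and 2 lower, with a median of 0.33. Pcnt encodes pericentrin of the matrix around the centrioles. Bbs4, a satellite protein as well, thus stood on the other side from Pcm1.

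In the transition zone list, the gate at the base of the cilium, 3 of 15 were higher and 1 lower, with a median of -0.19. These are 20.0% and 6.67%, against 16.9% and 19.3% of all entries. After the correction for transcript length the median was 0.15. B9d1 (16.2 to 42.6 against 2.62 to 8.57) and B9d2 (30.7 to 74.8 against 5.93 to 10.9) had ratios of 2.32 and 2.35, near that of Ift20. Their longest transcripts, 890 and 1021 nucleotides, are short as well. Tmem216 was higher too, and Cc2d2a lower. The list turned with the scaling, to 5 higher, 0 lower and a median of 0.15 on FPKM as deposited, and to 5 and 0 under quantile normalization. Without the 2 libraries with few entries above 0 it had 3 and 3, 20.0% each against 18.6% and 21.5% of all entries.

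The Golgi list had a median of -0.56, and 0.02 after the correction for transcript length. Of its 18 genes 2 were higher, Rab6a and Uso1, and 3 lower, Golga4, Golm1 and Tgoln1. These are 11.1% and 16.7%, below the 16.9% and 19.3% of all entries, and they became 3 and 1 on the deposited scaling, 0 and 2 under quantile normalization, and 2 and 5 without the 2 libraries with few entries above 0. Golga4, a golgin of the trans-Golgi, was 1.14 to 3.50 against 7.83 to 10.1 (log2 ratio -2.07), a wider gap than that of Golga2. Of the 6 transcription factors of cilia that passed, Rfx3 was higher (18.7 to 79.0 against 9.04 to 15.6) and Rfx1 and Rfx4 were lower. These last had cortex-like medians of 0.403 and 0.489 and passed the filter through the striatum-like class, at medians of 3.36 and 3.44, so they had to differ.

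**Figure D3:**
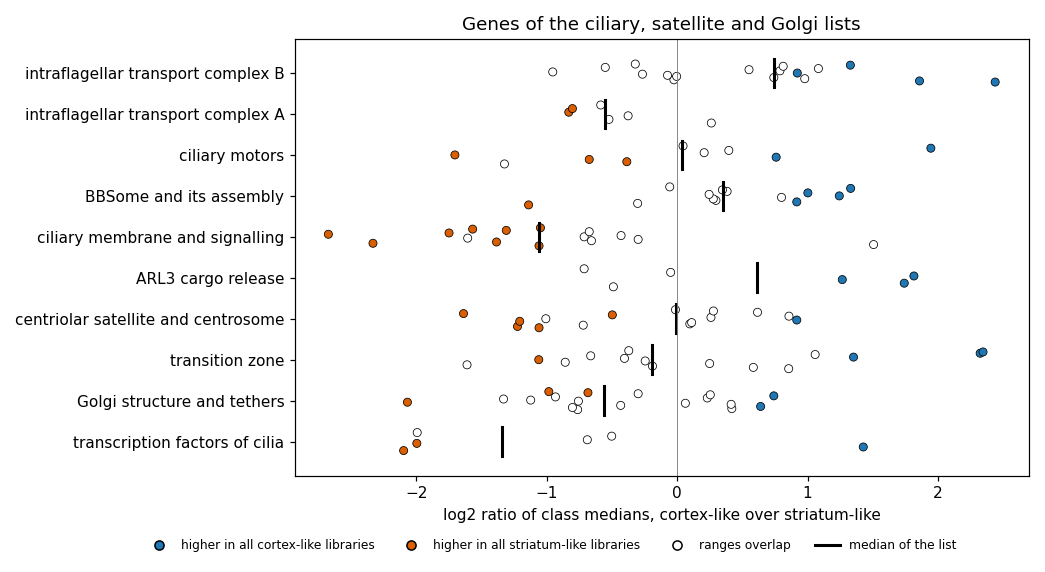
Log2 ratio of class medians, cortex-like over striatum-like, for each gene of the 10 lists that passed the filter, 1 point per gene, with a bar at the list median and a thin line at 0. Filled points are genes whose library ranges do not overlap between the classes. The membrane and signalling list has 8 such genes, all below 0, and the IFT-B list 4, all above.

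The labelled genotypes were then compared within a line and a tissue label, where both groups are of 1 class. Tissue class and sex transcripts went with the labels in 30 of 60 libraries each, so these are comparisons of labels. Whether the genotype labels hold was not tested, and Htt was not called in any of these comparisons. limma on log2(rescaled FPKM + 0.5) with labelled sex as a covariate called none of the 8 genes in any of the 6 comparisons at an adjusted p under 0.05. Over all entries tested, 0.0662% were called for Δ12/+ and 0.00663% for Δ12/+ with the tissue labels cortex and striatum, 0.119% and 0.0133% for Δ12/Δ12 in labelled males, and 0.0885% and 6.91% for KO/+. None of 8 members called is near these shares, also for KO/+ in libraries labelled striatum, where 1093 of 15808 entries were called. Counting the 2 tests of a difference between tissue labels, 64 tests of a member were made, and the smallest adjusted p was 0.227. The largest log2 change of a member was -0.44, for Kif3a. Within a tissue label every library has its own mouse number, but mouse and library preparation were not separated. The numbers recur under both tissue labels, so the 2 tests of a difference between them may share mice, and with the labelled mouse as a block they called 0 members and 0 entries too.

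Ift20 in libraries labelled cortex of the Δ12 line was 41.4 to 116 (median 70.5) in +/+ and 47.3 to 65.2 (median 59.0) in Δ12/+. The limma log2 change was -0.36 (SE 0.21, 95% CI -0.81 to 0.10, adjusted p = 0.656). The spread of +/+ covered that of Δ12/+ at both ends. In those labelled striatum, Ift20 was 51.2 to 82.0 (median 63.7) in +/+ and 47.1 to 92.6 (median 64.7) in Δ12/+, a change of 0.01 (95% CI -0.32 to 0.34). In the KO line the groups were tighter. Ift20 was 9.84 to 11.7 (median 10.5) in +/+ and 10.1 to 11.8 (median 10.5) in KO/+ labelled cortex, with a log2 change of 0.00 (95% CI -0.13 to 0.14). Labelled striatum, it was 8.77 to 11.6 (median 10.7) and 9.38 to 12.4 (median 11.3), with a change of 0.10 (95% CI -0.09 to 0.29).

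Ift88 was 5.89 to 11.3 (median 8.92) in +/+ and 4.24 to 9.66 (median 7.48) in Δ12/+ labelled cortex (log2 change -0.22, SE 0.22). The striatum label gave 7.18 to 13.0 (median 9.74) and 6.14 to 13.6 (median 9.29), with a change of -0.02 (SE 0.17). The groups overlapped over most of their range under both labels. KO-line Ift88 was 3.06 to 4.12 (median 3.38) in +/+ and 2.60 to 4.12 (median 3.61) in KO/+ labelled cortex (log2 change -0.03, SE 0.12), and 2.21 to 3.88 (median 3.19) and 2.62 to 4.08 (median 3.06) labelled striatum (log2 change 0.01, SE 0.13). The 95% intervals of Ift88 leave room for changes up to -0.70 in Δ12/+ and up to 0.30 in KO/+.

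Kif3a labelled cortex was 4.42 to 15.7 (median 7.80) in +/+ of the Δ12 line and 5.91 to 7.43 (median 6.46) in Δ12/+, a log2 change of -0.31 (SE 0.29). The upper end of +/+ is set by the libraries with few entries above 0. Labelled striatum, Kif3a was 5.27 to 11.0 (median 6.15) and 4.11 to 8.79 (median 6.16), a change of -0.06 (SE 0.16). KO-line values were 15.5 to 18.7 (median 16.2) in +/+ and 13.7 to 17.8 (median 15.1) in KO/+ labelled cortex (log2 change -0.11, SE 0.08). With the striatum label it was 15.3 to 18.6 (median 16.7) and 14.3 to 22.6 (median 17.2), a change of 0.05 (SE 0.09).

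Bbs4 came nearest to the threshold. Among KO-line libraries labelled striatum it was 6.97 to 7.76 (median 7.27) in +/+ and 7.39 to 9.04 (median 8.01) in KO/+, a log2 change of 0.14 (SE 0.06, 95% CI 0.00 to 0.28) with limma's unadjusted p = 0.0491 and adjusted p = 0.227. Its rank by p was 3416 of 15808 entries. Labelled cortex, it was 6.64 to 8.07 (median 7.66) and 6.47 to 8.13 (median 7.12), a change of -0.06 (SE 0.07). The difference of the KO/+ effect between the tissue labels was -0.20 (SE 0.09), with limma's unadjusted p = 0.0352 and adjusted p = 0.413. In the Δ12 line Bbs4 was 11.9 to 14.5 (median 13.4) in +/+ and 13.6 to 16.0 (median 15.0) in Δ12/+ labelled cortex (log2 change 0.15, SE 0.09, adjusted p = 0.649 by limma). With the striatum label it was 12.6 to 17.2 (median 14.4) and 11.6 to 17.3 (median 15.8), a change of 0.05 (SE 0.12).

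Adcy3 labelled cortex was 3.01 to 9.36 (median 7.95) in +/+ and 5.14 to 8.21 (median 6.67) in Δ12/+ (log2 change -0.06, SE 0.23), and labelled striatum 6.52 to 7.42 (median 7.19) and 5.90 to 9.26 (median 7.20), a change of 0.02 (SE 0.10). KO-line Adcy3 was 12.4 to 16.5 (median 15.8) in +/+ and 12.7 to 17.6 (median 14.9) in KO/+ labelled cortex (log2 change -0.06, SE 0.09). The values labelled striatum were 12.4 to 15.6 (median 14.1) and 13.7 to 15.9 (median 15.5), a change of 0.12 (SE 0.06, adjusted p = 0.285 by limma). Each pair of groups overlapped.

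Sstr3 was 2.05 to 3.39 (median 2.49) in +/+ and 2.31 to 3.22 (median 2.96) in Δ12/+ labelled cortex (log2 change 0.14, SE 0.13), and 2.08 to 3.36 (median 2.50) and 1.41 to 3.91 (median 2.82) labelled striatum (log2 change 0.00, SE 0.18). In the KO line labelled cortex it was 0.310 to 0.877 (median 0.463) in +/+ and 0.309 to 1.51 (median 0.853) in KO/+, a log2 change of 0.35 (SE 0.22, adjusted p = 0.504 by limma). Slc17a7 had a log2 change of 1.04 in the same comparison (SE 0.54, adjusted p = 0.423 by limma), and its part in the value of Sstr3 was not tested. Labelled striatum, Sstr3 was 0.499 to 0.871 (median 0.679) and 0.407 to 0.998 (median 0.596), a change of -0.06 (SE 0.13). At these levels the pseudocount of 0.5 is near the values themselves and the log2 changes understate the ratio.

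Pcm1 was among the members with the narrowest intervals. Labelled cortex, it was 3.93 to 7.53 (median 5.23) in +/+ and 4.52 to 7.31 (median 5.97) in Δ12/+ (log2 change 0.17, SE 0.16), and labelled striatum 4.6 to 6.19 (median 5.36) and 4.12 to 6.57 (median 5.03), a change of -0.02 (SE 0.12). KO-line Pcm1 was 11.5 to 13.2 (median 11.8) in +/+ and 10.2 to 12.8 (median 11.5) in KO/+ labelled cortex (log2 change -0.08, 95% CI -0.21 to 0.06). Labelled striatum, it was 11.1 to 13.5 (median 12.0) and 11.9 to 12.8 (median 12.0), a change of 0.00 (95% CI -0.12 to 0.11). In that last comparison the interval keeps the change of Pcm1 between a 0.12 fall and a 0.11 rise on the log2 scale.

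Golga2 was 2.2 to 8.59 (median 6.05) in +/+ and 5.03 to 6.75 (median 6.23) in Δ12/+ labelled cortex (log2 change 0.11, SE 0.24), and 5.28 to 8.16 (median 6.67) and 5.48 to 8.45 (median 6.98) labelled striatum (log2 change 0.08, SE 0.13). In the KO line it was 9.84 to 13.3 (median 11.1) in +/+ and 9.35 to 13.4 (median 11.9) in KO/+ labelled cortex (log2 change 0.05, SE 0.10). Those labelled striatum were 10.6 to 13.7 (median 11.2) and 9.93 to 12.6 (median 11.4), a change of 0.00 (95% CI -0.16 to 0.15). No pair of groups was separated.

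**Figure D4:**
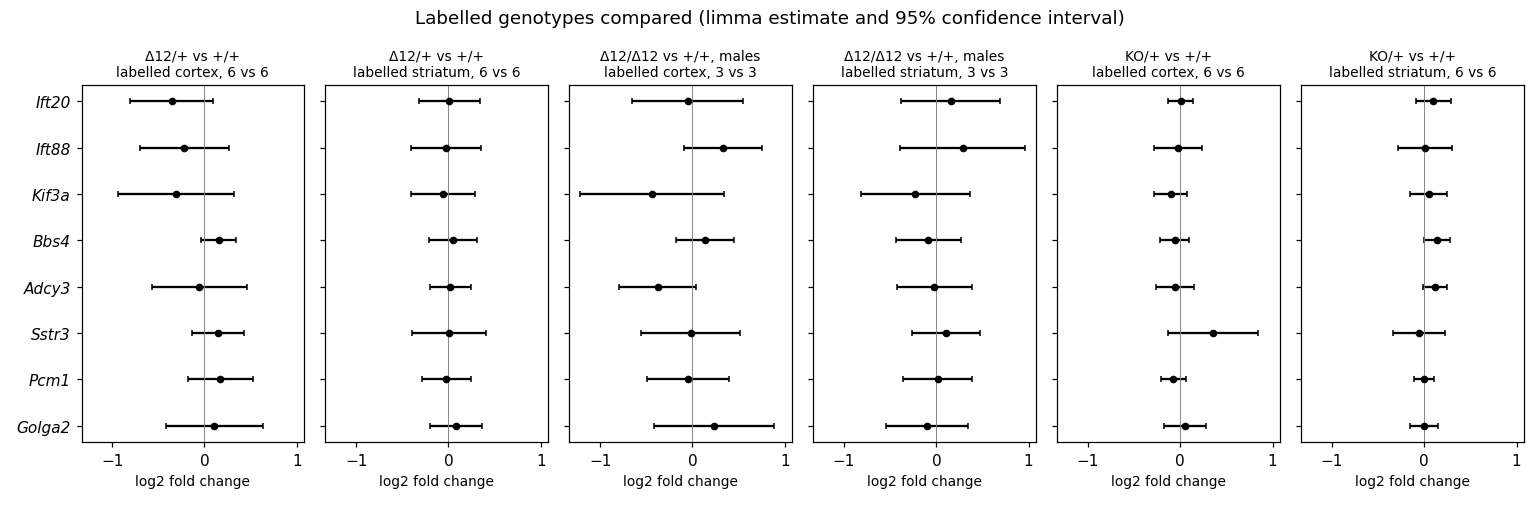
limma log2 fold change of each of the 8 genes with its 95% confidence interval in the 6 genotype comparisons (Δ12/+ and KO/+ against +/+ with 6 libraries a group, Δ12/Δ12 against +/+ with 3 labelled males a group). Only the interval of Bbs4 for KO/+ in libraries labelled striatum, 0.001 to 0.276, lies off 0, and no adjusted p is under 0.227.

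Δ12/Δ12 was compared with +/+ in labelled males, 3 against 3, the libraries that share a class. Kif3a labelled cortex was 8.15, 7.88 and 5.09 in Δ12/Δ12 and 14.4, 7.03 and 8.57 in +/+ (log2 change -0.44, SE 0.32, adjusted p = 0.773 by limma). The value of 14.4 is that of a library with few entries above 0. Adcy3 labelled cortex was 5.45, 6.12 and 6.45 in Δ12/Δ12 and 8.56, 8.90 and 6.55 in +/+ (log2 change -0.38, SE 0.17, adjusted p = 0.716 by limma). All 3 Δ12/Δ12 values of Adcy3 were lower than the lowest of +/+, by little. With the striatum label they were 5.52, 7.01 and 8.23 against 7.27, 7.12 and 6.52, a change of -0.03 (SE 0.17).

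Ift88 in the same labelled males was 7.90, 8.12 and 8.95 in Δ12/Δ12 against 5.89, 5.89 and 8.00 in +/+ labelled cortex (log2 change 0.33, SE 0.17, adjusted p = 0.734 by limma). Labelled striatum, it was 14.0, 9.03 and 10.5 against 7.18, 7.56 and 13.0 (log2 change 0.29, SE 0.28). The estimates had 1 sign under both labels, and the groups overlapped. Pcm1 changed by -0.05 (SE 0.18) and 0.02 (SE 0.15), Ift20 by -0.05 (SE 0.25) and 0.16 (SE 0.22), and Bbs4 by 0.14 (SE 0.13) and -0.09 (SE 0.14) with the labels cortex and striatum. Golga2 had changes of 0.23 (SE 0.27) and -0.10 (SE 0.18), and Sstr3 of -0.02 (SE 0.22) and 0.10 (SE 0.15).

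The difference of an effect between tissue labels was tested by an interaction term, and no entry was called in either line (0.0% of 15173 and 0.0% of 15917). At an unadjusted p under 0.05 there were 969 entries in the Δ12 line, none of them a member, and 1788 in the KO line, where Bbs4 was the 1 member. No other tool was run on these values, which are not counts. Ift20 had the widest member difference in the Δ12 line, -0.36 (SE 0.25), and Sstr3 in the KO line, 0.41 (SE 0.26).

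Of the 124 genes on the 10 lists, 5 were called, all of them for KO/+ against +/+ in libraries labelled striatum, where 6.91% of all entries were called. Mchr1 was 7.48 to 9.61 (median 8.18) in +/+ and 8.93 to 15.4 (median 12.8) in KO/+ (log2 change 0.57, adjusted p = 0.0197 by limma). Kif17 was 6.18 to 9.68 (median 8.40) and 9.39 to 12.5 (median 11.3), a rise of 0.43 (adjusted p = 0.0406). Both pairs of groups overlapped at their edges, and so did those of Ptch1, Unc119 and Wdr19. Ptch1 fell by 0.28, from 13.7 to 16.8 (median 15.1) in +/+ to 11.3 to 13.7 (median 12.1) in KO/+ (adjusted p = 0.03). Unc119 fell by 0.46, from 4.01 to 6.42 (median 5.53) to 2.97 to 4.38 (median 3.90) (adjusted p = 0.0376). Wdr19 of the IFT-A train fell by 0.22, from 3.36 to 3.95 (median 3.87) to 2.93 to 3.46 (median 3.19) (adjusted p = 0.0318). On the deposited scaling none of the 5 passed, with adjusted p of 0.0532 to 0.208. Leaving out 1 library left all 5 called only without +/+ female 2 or KO/+ male 2, 4 without +/+ male 3, 3 without KO/+ male 1 or female 3, and none without +/+ female 3. Without +/+ male 1 only Ptch1 was called, and without +/+ male 2, +/+ female 1 or KO/+ male 3, female 1 or female 2 only Mchr1.

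Markers of other cells moved in that same comparison. Of all 15808 entries tested there, 555 were called higher in KO/+ and 538 lower. All 8 striatal projection neuron markers had changes above 0, with a list median of 0.48 on the log2 scale, and 6 were called. Their sum was 1071 to 1425 in +/+ and 1500 to 1953 in KO/+. None of the 4 oligodendrocyte markers had a change above 0, and 3 were called lower. Their sum was 891 to 1071 in +/+ and 733 to 825 in KO/+. The sums did not overlap in either list. Tmem212 of the ependymal list (log2 change 0.69) was higher and Aqp4 of the astrocyte list (-0.58) lower, while no gene of the choroid plexus, microglia, endothelium and oligodendrocyte precursor lists was called. The 4 cortical excitatory neuron markers tested had changes above 0, with a list median of 0.74. The part of these cell types in the 5 calls, and in the value of Bbs4, was not tested.

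Likeness between genes was measured as Pearson's r of log2 values over the 60 libraries, each class centred on its own mean, among 14220 genes with a mean of at least 1. It is a description, since the libraries share depth, scaling and transcript length effects. Pcm1 went most closely with Dnm1l (0.873) and Arfgef1 (0.835), Golga2 with Dpf2 (0.839) and Tbc1d22b (0.746), and Adcy3 with Celsr2 (0.825) and Celf5 (0.819). Ift20 went with Coq2 (0.805) and Fut8 (0.781), and Ift88 with Pms1 (0.787) and the pseudogene Rpl9-ps4 (0.772). Sstr3 went with Bdnf (0.775) and Gfra2 (0.743), Kif3a with Hspd1 (0.721) and Pecam1 (0.713), and Bbs4 with Rbmxl1 (0.642) and Nupl1 (0.606).

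Among the 8 genes themselves, the highest r were those of Golga2 with Adcy3 (0.665) and of Ift88 with Ift20 (0.536). Pcm1 ran against both train genes, with -0.751 for Ift20 and -0.547 for Ift88. The level of short transcripts also differed among libraries of 1 class. Over 568 genes with a longest transcript of up to 1000 nucleotides, each centred on its own median, the median log2 level was 0.433 to 0.983 in the cortex-like and -0.617 to -0.475 in the striatum-like libraries. Within the 30 cortex-like libraries it went with Ift88 (r of 0.739) and Ift20 (0.736) and against Pcm1 (-0.851), while in the 30 striatum-like ones the r were 0.313, 0.259 and -0.12. The likenesses of Pcm1, Ift20 and Ift88 were not recomputed with this level removed.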

How the data were processed

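RNA was isolated with the RNeasy kit, depleted of ribosomal RNA, made into directional libraries (NEBNext Ultra II) and sequenced on the NovaSeq6000. The submitters' processing notes name bcl2fastq 2.20, Trimmomatic 0.30, TopHat2 2.0.14, SAMtools 1.3, HTSeq 0.6.1p1 and the build GRCm38.p4. The authors deposited 1 table of FPKM values per library, normalized by them for length and library size, and the program that made the FPKM is not given in the sources used here. The tables hold no counts, so depth is an estimate and no count model was used.

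Of 47597 entries, 23 whose status was not OK throughout were left out. FPKM were divided by the median ratio to the geometric mean over 13235 entries above 0 in all 60 libraries. limma 3.58.1 (R 4.3.3) was fitted on log2(value + 0.5) to entries with a mean of at least 0.5, with labelled sex as a covariate except in labelled males alone, and Benjamini-Hochberg adjustment over all entries tested. Adjusted p under 0.05 was called. The script was tested on simulated data. Transcript lengths and overlapping genes came from GENCODE M21. Groups follow the labels, and the classes follow Slc17a7 above 100 FPKM as deposited. Samples with the same number in the labels were checked for pairing, and no pair correlated by over 0.1 (-0.222 to 0.082), so the fits have no block. Genes were named by a rule: the 8 genes, Htt and Slc17a7, up to 5 called list genes per comparison, up to 8 list genes with the largest class ratio and no overlap, and 2 most alike genes per member. Other list genes, and the markers called for KO/+, were named after their values were seen. A gene of the set and a gene of a marker list are not reported here. The members and lists were chosen with earlier results of these data known. Other scalings, pseudocounts, filters, covariates, samples and left-out libraries were tried. Alternatives without the libraries of fewer than 18000 entries above 0, and the correction for transcript length, were added after seeing the data. P-values measure the spread between these samples only.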

Additional observations from a re-analysis of the deposited data

Results flagged for a closer look

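Of 80 sets of 6 values, each member in each labelled group, 8 held a library whose gap to the rest exceeded the 95% critical value of Dixon's test. Of these sets, 16 are of Δ12/Δ12 groups that hold both classes, where a single library can hardly stand apart, and all 8 fell among the other 64. Chance flags about 1 in 20 groups. Values are rescaled FPKM, with the range of the other 5 libraries after each.

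The library labelled cortex KO-line +/+ female 2 stood out in 3 members, with Pcm1 at 13.2 (11.5 to 12.0), Adcy3 at 12.4 (15.2 to 16.5) and Bbs4 at 6.64 (7.58 to 8.07). In libraries labelled striatum KO-line KO/+, Adcy3 was 13.7 in male 2 (15.4 to 15.9), Ift88 was 4.08 in female 2 (2.62 to 3.16) and Pcm1 was 12.8 in female 3 (11.9 to 12.1). Female 3 is the library whose title names the other line. In +/+ of the Δ12 line labelled striatum, Kif3a was 11.0 in male 1 (5.27 to 6.33) and Adcy3 was 6.52 in male 3 (7.09 to 7.42).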

How the results depend on the processing

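Of 126 alternatives, 1 had a member called. This exception, Δ12/Δ12 against +/+ labelled striatum with the labelled females included, mixes the classes, with 4381 entries and 1 member called (Ift20, log2 change -1.28). Of 1008 member values under alternatives, 117 had the other sign than the reported value. Only 1 of the 1008 passed the threshold, that value of Ift20, whose reported change was 0.16. Outside that exception the smallest adjusted p of a member was 0.125 (0.227 in the reported fits). Between the classes 4 members were higher and 0 lower without overlap on the deposited scaling (20.9% and 9.97% of all entries), which moved the median log2 ratio of all entries from -0.03 to 0.18 and the share of higher among entries without overlap from 46.6% to 67.6%.

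Counts of called entries moved more than 1.5 times as follows, and the cause was not tested. For Δ12/+ labelled cortex (10), quantile normalization gave 29, a pseudocount of 0.1 gave 6, all cortex-like libraries in 1 fit 57, both tissue labels together 0, and leaving out both libraries with few entries above 0 gave 19. For Δ12/+ labelled striatum (1), no sex covariate gave 2 and 1 fit for the class or both labels 0. For Δ12/Δ12 labelled cortex (18), these last gave 10 and 0, and including labelled females 145. For Δ12/Δ12 labelled striatum (2), the deposited scaling gave 11, quantile normalization 17, a pseudocount of 0.1 10, no filter 1, the class fit 9 and both labels 0. For KO/+ labelled cortex (14), the deposited scaling gave 110, no filter 28, the class fit 112 and both labels 1428. For KO/+ labelled striatum (1093), the deposited scaling gave 306 (23 higher and 283 lower, against 555 and 538). The interaction in the KO line had 1 call on the deposited scaling and 0 otherwise.

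With a replicate block the counts in this order were 3, 0, 12, 1, 0 and 302, and no sample pairs by number in the labels or the data (2 of 3 samples of Δ12/Δ12 labelled striatum correlated best with their own number, at most 1 of 6 elsewhere). Leaving out 1 library gave 5 to 41 (41 without +/+ female 3), 1 to 2, 17 to 51 (51 without +/+ male 1), 1 to 32 (32 without +/+ male 2), 1 to 19 (1 without +/+ male 2) and 560 to 1243 (560 without +/+ male 1). None of the 5 list genes called for KO/+ labelled striatum passed with that block (adjusted p 0.0508 to 0.0928). The deposited intervals were widest for Golga2 in the cortex-like and for Sstr3 in the striatum-like libraries, and the part of depth in their width was not tested.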

Other observations

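Over the alternatives for KO/+ against +/+ labelled striatum, Mchr1 passed the threshold in 17 of 21, Ptch1 in 13, Wdr19 in 11, and Kif17 and Unc119 in 8 each, with the sign of each gene the same in all 21. In the libraries labelled cortex of the KO line, where none of the 5 was called, the medians in +/+ and KO/+ were 9.45 and 10.5 for Mchr1, 9.89 and 10.3 for Kif17, 14.3 and 11.6 for Ptch1, 4.49 and 3.82 for Unc119, and 3.47 and 3.31 for Wdr19, in rescaled FPKM. No entry was called in the test of the difference between the tissue labels.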
